A study of Homo sapiens with 16 samples.

Results

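The surface molecules PDPN, THY1, FAP, VCAM1, ICAM1, CD34, ENG, NT5E and PDGFRA, which are used to describe fibroblast states, were followed at the transcript level in a human colon fibroblast line. They were chosen by symbol, and all 9 were found among the 40663 symbols of the count table, each with counts in every library. ENG and PDGFRA were lower in cytokine-pulsed cells given belinostat than in pulsed cells given vehicle, by 30.1% and 16.2%. Between the compound arms, NT5E, ENG and THY1 were lower after belinostat than after GSK-J4. Cytokine pulses followed by vehicle changed none of the 9 past the test's threshold.

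The cells were Ccd18-Co, a single fibroblast line from the intestine, so the values describe 1 line and not several donors. All groups were 4 libraries of bulk RNA-seq, in which fewer cells of a type and less RNA per cell cannot be told apart. The unstimulated group (replicates 1 to 4) received no cytokines and, by its titles, DMSO. The other groups went through 3 pulses, each of 72 h with a cytokine mix in medium without serum and then 96 h of recovery in full medium. By the labels the mix held IL-1B at 0.1 ng/ml, and its other cytokines, OSM, TNF and IL-17A, were at 10 ng/ml. After 1 week of rest they were given DMSO (vehicle, replicates 13 to 16), the histone deacetylase inhibitor belinostat at 250 nM (replicates 17 to 20) or GSK-J4, an inhibitor of the demethylases that act on lysine 27 of histone H3, at 10 µM (replicates 21 to 24). These doses are those of the labels, and for IL-1B, belinostat and GSK-J4 the sources differ. The agents stayed on for 5 days in serum-free medium, and RNA was taken 2 weeks after they were removed. The labels do not say that the libraries of a group came from separate experiments, so the p-values measure the spread between these libraries, which may be technical.

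Surface molecules of this kind sort fibroblasts into states by what they bind or do. PDPN, a mucin-like glycoprotein, marks reticular and inflammation-associated stroma, THY1 is a lipid-anchored adhesion protein of most mesenchymal cells, and FAP is a membrane protease that cleaves after proline in matrix proteins. VCAM1 and ICAM1 hold leukocytes through integrins and are classical targets of NF-kB in cells exposed to TNF or IL-1. CD34 marks the adventitial and submucosal fibroblasts of the gut as well as endothelium, ENG is a co-receptor for TGF-beta and BMP ligands, NT5E makes adenosine from AMP outside the cell, and PDGFRA is a receptor for PDGF-A and PDGF-C dimers.

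The sequences before the transcription start are shown for VCAM1, as the member with a match to the NF-kB pattern given below, and for ENG. ENG is the member with the largest called change after belinostat. They are the 250 bases upstream of the RefSeq start in GRCh38.p14, printed 5′ to 3′ on the strand of the gene, at chr1:100719492-100719741 (plus strand) and chr9:127854659-127854908 (minus strand). Capitals mark an NF-kB match and a pair of overlapping TATA-box matches, 1 on each strand, close to the VCAM1 start. ENG has no capitals because none of the letters searched for were found in its window.
VCAM1: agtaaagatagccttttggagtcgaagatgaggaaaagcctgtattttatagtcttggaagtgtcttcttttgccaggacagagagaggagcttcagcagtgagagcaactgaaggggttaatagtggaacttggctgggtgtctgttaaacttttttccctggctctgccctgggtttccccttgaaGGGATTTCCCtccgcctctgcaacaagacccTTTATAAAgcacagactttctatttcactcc
ENG: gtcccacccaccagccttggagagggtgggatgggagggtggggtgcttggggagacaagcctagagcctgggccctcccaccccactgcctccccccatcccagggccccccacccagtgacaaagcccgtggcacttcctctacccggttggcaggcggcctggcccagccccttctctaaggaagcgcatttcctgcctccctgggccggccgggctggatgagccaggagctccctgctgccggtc

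Of the 9 genes, 7 had a promoter in the RefSeq table, all but THY1 and FAP. Both strands of each window were searched for the TATA box (TATAAA), the GC box (GGGCGG) and the AP-1 site (TGACTCA). The NF-kB consensus searched for was GGGRNNYYCC, where R is A or G, Y is C or T and N is any base. The NF-kB match of VCAM1 lay 62 to 53 bases before the start and met the consensus on both strands. No other member's window met this pattern, which 9.96% of 35116 promoters did. Stretches that depart from it, such as TGGAAATTCC before the ICAM1 start, were not counted, so a related site in the other windows is not excluded. A TATA box stood 29 to 24 bases before the VCAM1 start and 30 to 25 bases before the ICAM1 start, and PDPN had TATA matches on the reverse strand. Over all promoters, 10.7% held a TATA box. GC boxes were found in PDPN, ICAM1, CD34, NT5E and PDGFRA (42.6% of all promoters), and an AP-1 site in none of the 7 (4.2%). PDPN and PDGFRA had more than a single window, so the share per promoter understates their room for a match. All 250 bases of the CD34 and NT5E windows, and of some PDPN windows, lay in GENCODE exons of the gene itself. A match of letters is a description of the window and says nothing about binding.

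The libraries held 14.4 to 19.5 M estimated counts. Values below are normalized counts, which are estimated counts divided by a size factor that evens out library depth, given as mean ± SD. A gene was called where the adjusted p of DESeq2's Wald test, over all genes tested, was under 0.05. All 8 fibroblast markers checked, collagens, DCN, LUM, VIM and PDGFRB, were present, with a summed level of 442286 to 571761 normalized counts. Of the endothelial markers, 6 of 9 stayed below 10 normalized counts in every library. Of the haematopoietic markers 5 of 8, and of the glial markers 3 of 4, were below 10 as well, with summed levels of at most 738 and 12.41. CD3E and SOX10, defining markers of T cells and glia, were at 0 throughout. Other members of these lists were present in every library, CD14 at 30.18 to 247.3, CD68 at 147.8 to 473.5 and the endothelial TEK at 7320 to 10136. The summed endothelial level was 7364 to 10177. Smooth muscle and pericyte markers were also present, with a summed level of 17414 to 32227 and ACTA2 at 8967 to 21660. Of the epithelial markers 3 of 7 were below 10, KRT20 among them at 0, while the keratins KRT18 (1098 to 2950) and KRT8 (346.7 to 504.1) were present in every library. Belinostat replicate 17 stood apart over all genes, with a squared deviation from its group mates of 26.5 to 31.6 times sampling noise, where the mates differed among themselves by 3.69 to 4.7 times and the pairs of the other groups by 2.97 to 31.3 times. The widest of those pairs were unstimulated replicates 1 and 3 (31.3 times), 1 and 4 (17.1 times) and 2 and 3 (14.8 times). The calls after belinostat are also given without belinostat replicate 17. Without it 8.27% of all genes were called against vehicle, 9.69% against unstimulated cells and 14.6% against GSK-J4.

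On a scale that allows genes to be compared (CPM, counts scaled to the library total, per kb of exon), the order of the 9 was the same in each of the 4 groups. In vehicle cells PDGFRA came first at 135 ± 6.16, followed by THY1 at 98.5 ± 15.4, VCAM1 at 82.5 ± 6.03 and ENG at 73.6 ± 3. PDPN at 20.3 ± 4.34, ICAM1 at 13.5 ± 0.965 and NT5E at 5.6 ± 1.46 were at a middle level. FAP at 2.25 ± 0.67 was low, and CD34 at 0.0539 ± 0.00577 was close to absent. Several neighbours in this order did not differ beyond their spread. The libraries of VCAM1 and ENG overlapped in every group, in vehicle cells at 76.3 to 90.7 and 69.8 to 76.6. THY1 and VCAM1 overlapped in vehicle cells and after belinostat, and PDPN and ICAM1 in unstimulated cells (7.75 to 17.9 and 9.3 to 11.9) and after belinostat. PDGFRA and THY1 overlapped after GSK-J4 alone, at 115 to 124 and 106 to 121. All other neighbours were apart in each group. When the longest transcript took the place of the union of exons as length, FAP passed NT5E in unstimulated cells (5.75 against 4.35) and, narrowly, after belinostat (4.74 against 4.71).

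**Figure D1:**
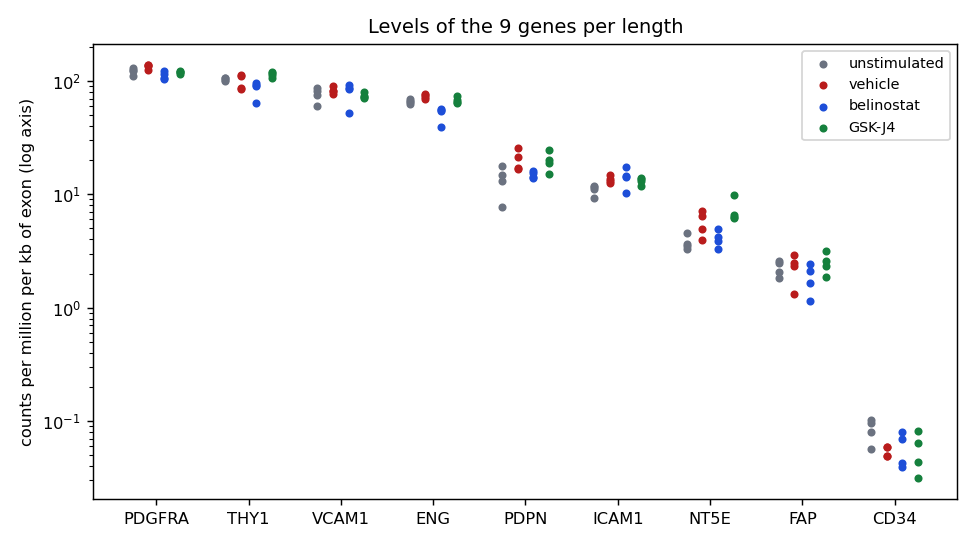
Level of the 9 genes per length in each library, in CPM per kb of exon on a log axis, with a point for each of the 4 libraries of a group. PDGFRA, THY1, VCAM1 and ENG form a high set from 39.6 upward, and CD34 lies at or below 0.101 in every library.

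The first comparison asks whether repeated cytokine exposure left these genes at another level after rest and washout. None of the 9 genes was called between vehicle and unstimulated cells in DESeq2, and none in edgeR's quasi-likelihood test. Over all genes 1.74% were called in this contrast. At an unadjusted p under 0.05 there were 4 members, PDPN, ICAM1, NT5E and PDGFRA, all with higher means in vehicle cells (8.92% of all genes passed this bar).

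ICAM1 was at 567.5, 673.7, 685.3 and 724.4 normalized counts in the unstimulated libraries and at 898.5, 760.8, 796.4 and 803.1 in the vehicle libraries. These ranges did not overlap, which was so for 6.93% of all genes tested, and ICAM1 was the only member of which it held. Its log2 fold change was 0.30 (SE 0.125, 95% interval 0.05 to 0.54), with an adjusted p of 0.337 in DESeq2. ICAM1 was called in 2 of 23 alternatives. These were DESeq2 with 2 surrogate variables (adjusted p = 0.0378) and without belinostat replicate 17 (0.0344), a library of neither group that shares in the estimate of spread. With only the 2 groups fitted the adjusted p of ICAM1 was 0.0584. VCAM1, its partner in leukocyte adhesion, was at 6375, 8657, 9049 and 8063 in unstimulated and at 9651, 8621, 8673 and 7903 in vehicle cells, with a log2 fold change of 0.12 (SE 0.14). Whether the NF-kB match printed above for VCAM1 has a part in its level was not tested. In a list of 10 NF-kB feedback genes, all of them tested, TNFAIP3, the inhibitor of NF-kB signalling, was the 1 gene called, at 309.2 ± 65.6 against 194.3 ± 28.9 (log2 0.67, adjusted p = 0.00142 in DESeq2).

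PDPN was at 1175, 504.5, 841.6 and 961.7 normalized counts in unstimulated cells and at 1103, 1405, 1086 and 1642 in vehicle cells. The single overlap came from unstimulated replicate 1, and without it the log2 fold change went from 0.59 to 0.77 and the gene was called (adjusted p = 0.00652 in DESeq2). With it the adjusted p was 0.252. NT5E was at 294.3, 278.3, 256.6 and 367.1 in unstimulated and at 569.2, 391, 311.1 and 498.8 in vehicle cells, a log2 fold change of 0.57 (SE 0.192, adjusted p = 0.125 in DESeq2). Vehicle replicate 15, at 311.1, lay within the unstimulated range, and leaving it out brought the adjusted p to 0.0207 at a log2 fold change of 0.70. Leaving out GSK-J4 replicate 22, which belongs to neither group but shares in the estimate of spread, gave 0.0491.

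THY1, FAP and ENG overlapped between unstimulated and vehicle cells, with log2 fold changes of -0.08, 0.01 and 0.14. CD34 had 9.01 to 15.98 normalized counts in unstimulated libraries and 7.377 to 9.582 in vehicle libraries. At this depth its 95% interval ran from -1.48 to 0.17, so a change of either size within it could not be detected.

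**Figure D2:**
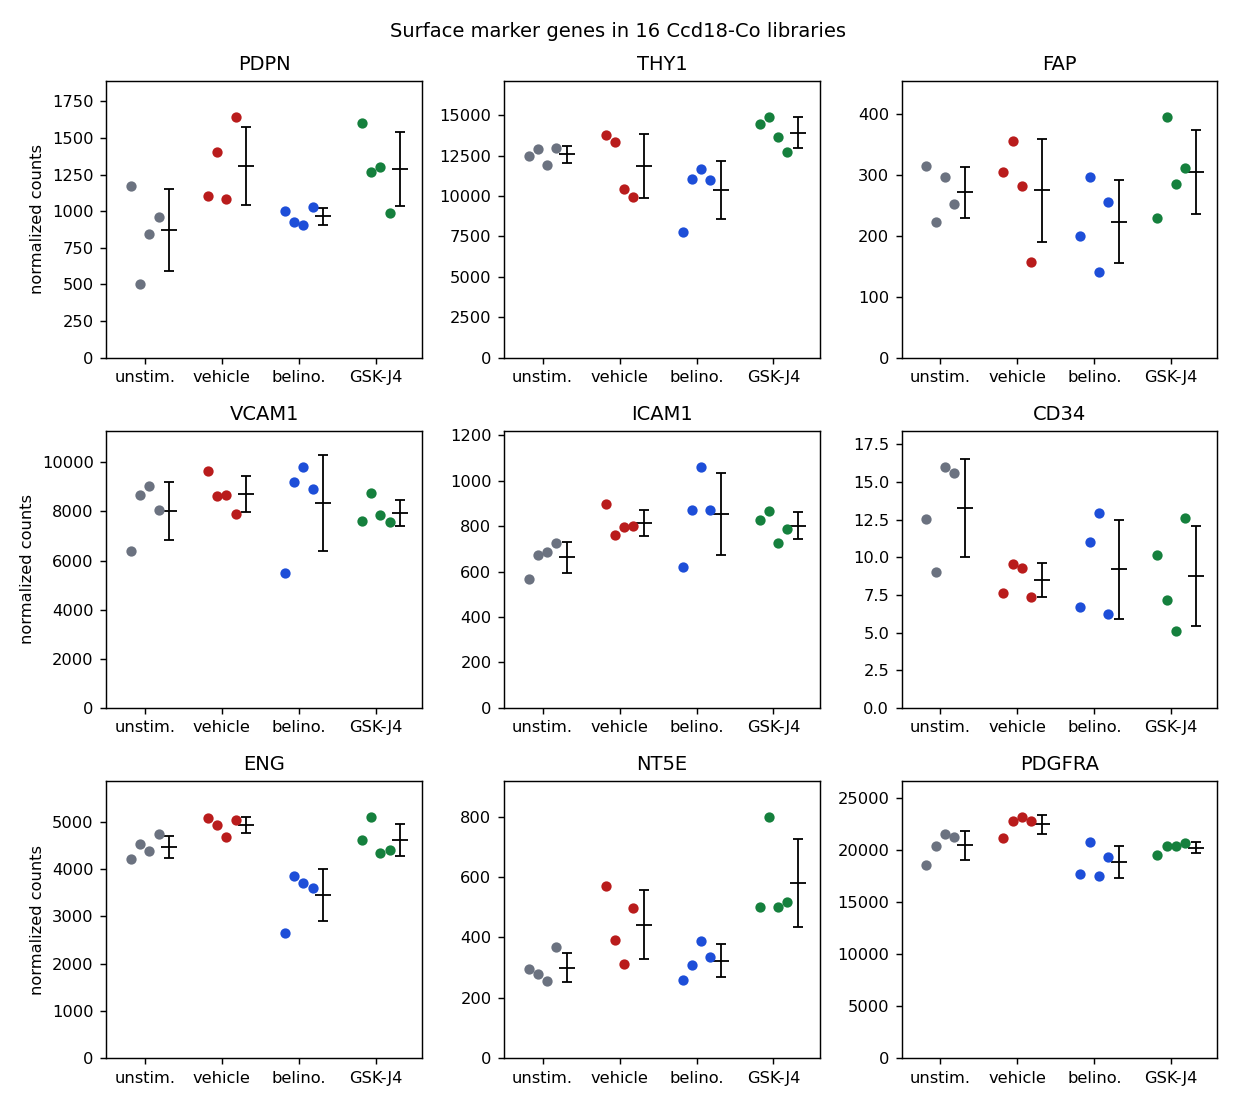
Normalized counts of the 9 genes in all 16 libraries, with a panel for each gene and an axis that starts at 0. Points are libraries, and the bar beside each group gives the mean and SD of 4; belinostat libraries of ENG (2647 to 3859) lie below all others, and NT5E reaches 798.6 in GSK-J4 replicate 22.

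The second comparison asks what belinostat left behind in pulsed cells. Against vehicle, 2 of the 9 genes were called, both lower, in a contrast in which 6.26% of all genes were called and 3.13% were called lower. Belinostat and GSK-J4 were each set against the same 4 vehicle libraries, so their contrasts are not independent.

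ENG was at 5085, 4926, 4685 and 5033 normalized counts in the vehicle libraries and at 2647, 3859, 3697 and 3601 in the belinostat libraries. All 4 belinostat libraries were below all 4 vehicle libraries and also below the unstimulated ones, which were at 4218, 4523, 4375 and 4750. The means were 3451 ± 546 and 4932 ± 178, and ENG fell by 0.52 on the log2 scale (SE 0.09, 95% interval -0.70 to -0.33, adjusted p = 2.54e-06 in DESeq2). Belinostat replicate 17 was the lowest by far, and without it the log2 fold change was -0.41 with an adjusted p of 1.28e-09.

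PDGFRA was at 21119, 22756, 23103 and 22761 in vehicle cells and at 17701, 20698, 17507 and 19323 after belinostat. The groups did not overlap, although the distance between the nearest libraries was small. The log2 fold change was -0.25 (SE 0.06, adjusted p = 0.000816 in DESeq2), and -0.23 (adjusted p = 0.00466) without belinostat replicate 17. PDGFRA remained the highest of the 9 genes per length, at 113 ± 8.67 CPM per kb.

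PDPN was the third member whose groups did not overlap (11.4% of all genes tested). It was at 998.6, 928, 907.3 and 1026 after belinostat, a narrower spread than the 1086 to 1642 of the vehicle libraries. The log2 fold change of -0.44 (SE 0.228) did not pass the test over all 4 groups (adjusted p = 0.329 in DESeq2) and did so when only these 2 groups were fitted (adjusted p = 0.0195). NT5E, at 257.8, 308.9, 389.5 and 334.3, overlapped the vehicle libraries, with a log2 fold change of -0.46 (adjusted p = 0.169). It was called, at -0.59 and an adjusted p of 0.0343, without vehicle replicate 15.

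The adhesion receptors gave no call. VCAM1 was at 5476, 9184, 9802 and 8932 after belinostat, so that 3 libraries were within or above the vehicle range and replicate 17 was below it. Its log2 fold change of -0.06 turned to 0.10 without that replicate. ICAM1 showed the same layout, with replicate 17 at 618.6 and the others at 871.8, 1060 and 871.1 (log2 0.07, and 0.20 without replicate 17). Over all 16 libraries VCAM1 and ICAM1 had a Pearson's r of 0.73 on log2 counts, and 0.89 after group means were taken out, which became 0.70 and 0.71 over the 15 libraries without replicate 17. High values after group means were taken out were not particular to this pair. With replicate 17 included, r was 0.85 for ICAM1 and ENG, 0.83 for VCAM1 and ENG and 0.76 for THY1 and ENG. Other pairs were low, such as FAP and VCAM1 at 0.11 and PDPN and ICAM1 at -0.23.

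THY1 was at 7741, 11065, 11675 and 10971 after belinostat and at 13793, 13358, 10404 and 9960 in vehicle cells. The vehicle libraries fell into a high and a low pair, and the groups overlapped (log2 -0.20, SE 0.118). FAP ranged from 140.2 to 296.7 against 156.8 to 355.5 (log2 -0.30, SE 0.239), and CD34 from 6.23 to 12.95 against 7.377 to 9.582 (log2 0.11, SE 0.448).

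**Figure D3:**
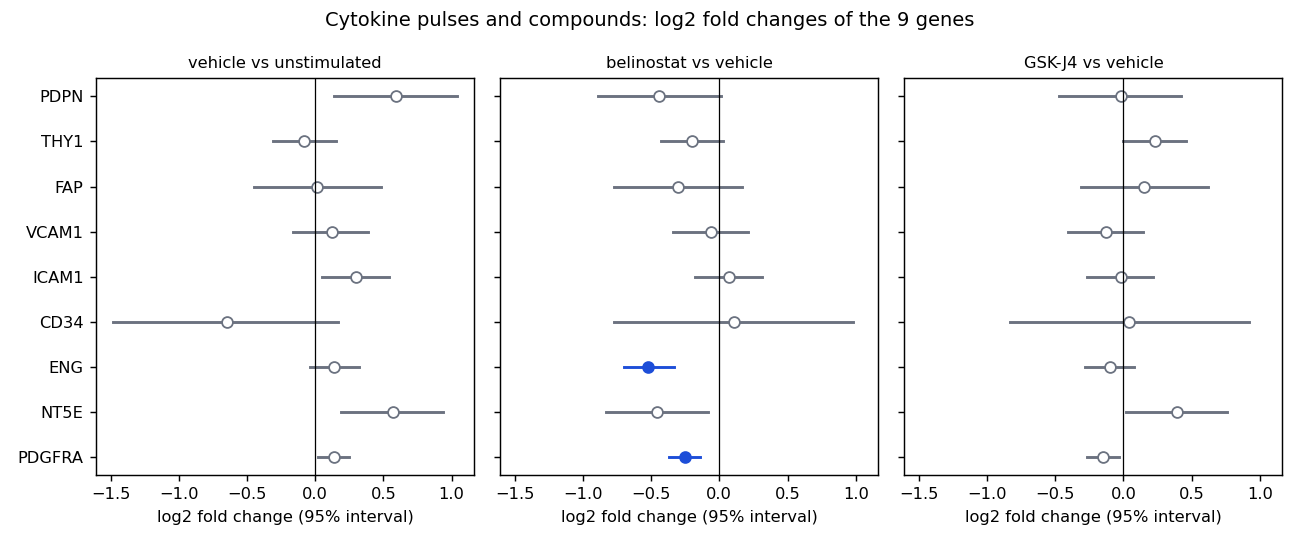
Log2 fold changes of the 9 genes with 95% intervals for vehicle against unstimulated cells and for each compound against vehicle. Filled points passed an adjusted p under 0.05 in DESeq2, which in these 3 contrasts was so for ENG (-0.52) and PDGFRA (-0.25) after belinostat.

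ENG passes ligands of the TGF-beta and BMP families to their signalling receptors, so the other genes of that system were read from a list of 21, of which 19 were tested. After belinostat 3 were higher and 3 lower than in vehicle cells. Those lower were TGFBR2, the type II TGF-beta receptor, at 7494 ± 927 against 10102 ± 662 (log2 -0.43, adjusted p = 5.06e-06 in DESeq2), the co-receptor TGFBR3 (log2 -0.41) and the BMP effector SMAD1 (log2 -0.50). Those higher were BMPR2, the type II BMP receptor, at 6193 ± 316 against 4916 ± 332 (log2 0.33, adjusted p = 3.81e-06), the ligand TGFB2 (log2 0.34) and the inhibitory SMAD7 (log2 0.33). ACVRL1, the type I receptor that pairs with ENG in endothelium, was at 41.43 ± 6.06 and 42.45 ± 9.26, low and overlapping. The median log2 fold change over the 19 was -0.03, against 0.0029 over all genes tested. Without belinostat replicate 17 all of these 6 were still called, with log2 fold changes of -0.35 for TGFBR2, -0.49 for TGFBR3, -0.39 for SMAD1, 0.34 for BMPR2, 0.38 for TGFB2 and 0.24 for SMAD7.

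ENG and CD34 are also endothelial genes. PECAM1 had means of 2.6 normalized counts in vehicle cells and 4.622 after belinostat, and CDH5 was at 0 in every library of both groups. TEK, an angiopoietin receptor, was well above the other endothelial markers, at 8224 ± 554 and 9322 ± 694, and moved the other way from ENG (log2 0.18, adjusted p = 0.0437 in DESeq2), a call that was lost without replicate 17 (log2 0.14, adjusted p = 0.142). The summed endothelial level was 7716 to 8858 in vehicle and 8607 to 10177 in belinostat libraries. The epithelial sum was 1558 to 1970 and 1982 to 3474, with the keratins KRT8 (log2 0.36) and KRT18 (log2 0.84) called higher of 3 tested, with replicate 17 and without it. The smooth muscle and pericyte sum was 20435 to 23922 and 17414 to 19206, of 8 markers with 1 below 10 throughout. Its members did not move as 1 group, since ACTA2, the smooth muscle actin, was called lower (9990 ± 733 against 14142 ± 1344, log2 -0.50) and MCAM higher (log2 0.49), while the other 5 tested were not called and RGS5 was at 468.7 ± 35.7 against 385 ± 37.2. Without replicate 17 CSPG4 was called lower as well (log2 -0.70). The part of these differences in the values of ENG and PDGFRA was not tested.

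Of the 7 genes of the PDGF list, all tested, 2 were lower after belinostat. NRP1, a co-receptor for VEGF and PDGF ligands, was at 82.88 ± 15.6 against 168.4 ± 42.3 (log2 -1.02, adjusted p = 8.01e-06 in DESeq2). PDGFD, a ligand of the beta receptor, was at 3064 ± 203 against 4366 ± 184 (log2 -0.51, adjusted p = 9.18e-13). PDGFRB, the sister receptor, was at 15239 ± 1835 against 15020 ± 1229 and was not called (log2 0.02, 95% interval -0.17 to 0.21). The PDGFRA interval, from -0.37 to -0.14, overlapped that of PDGFRB, and the difference between the receptors was not tested. Without replicate 17 NRP1 (log2 -1.04) and PDGFD (log2 -0.48) were still called, and the ligand PDGFC was called lower too (log2 -0.28, adjusted p = 0.00868), 3 genes in all.

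In the adenosine list DPP4, which anchors adenosine deaminase at the surface and is a relative of FAP, was lower (log2 -0.25, adjusted p = 0.00359 in DESeq2), as was the adenosine receptor ADORA1 (log2 -0.25, adjusted p = 0.0294), of 9 genes tested. ENTPD1, the enzyme that supplies NT5E with AMP, was at 658.5 ± 106 and 628.4 ± 34.4 and was not called. Among 4 tested relatives of FAP, DPP4 was the 1 called. Of 13 tested integrins, ligands and partners of VCAM1, ICAM1 and PDPN, none was called in DESeq2, 3 had an unadjusted p under 0.05 (15.9% of all genes), and over the alternatives run, edgeR among them, the count was 0 to 1. The integrin ligand ICAM5 was that 1 gene without belinostat replicate 17 (log2 0.56, adjusted p = 0.00204), where DPP4 and ADORA1 were still called. In the NF-kB list NFKB2 (log2 -0.32) and NFKB1 (log2 -0.17) were lower, and without replicate 17 NFKB1 was not (log2 -0.12, adjusted p = 0.151).

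Other surface molecules of fibroblasts moved in both directions after belinostat. Of 22 tested, 5 were higher and 9 lower, 14 in all, and this count was 10 to 15 over the alternatives run. The adhesion molecule ALCAM was at 10119 ± 787 against 7273 ± 736 (log2 0.48, adjusted p = 3.83e-08 in DESeq2) and MCAM, a pericyte adhesion molecule, at 4666 ± 513 against 3332 ± 297 (log2 0.49). The complement regulator CD55 fell to 789.1 ± 27.5 from 1014 ± 23.5 (log2 -0.36), and the TNF receptor TNFRSF1A to 5517 ± 143 from 6377 ± 153 (log2 -0.21). The list's median log2 fold change was -0.09. Without replicate 17 there were 5 higher and 10 lower of 21 tested, among them ALCAM (log2 0.52), MCAM (log2 0.41), CD55 (log2 -0.38) and TNFRSF1A (log2 -0.19). That fit called 8.27% of all genes.

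The genes whose log2 counts followed ENG most closely over the 16 libraries, of 11741 with a mean of at least 50 normalized counts, were TP53I11 (Pearson's r 0.945), the mesenchymal cadherin CDH11 (0.929) and the AP-1 subunit FOSL2 (0.921). CDH11 was at 6930 ± 1064 after belinostat and 9323 ± 373 in vehicle cells. For PDGFRA they were GLT8D2 (0.889), PDGFD (0.832) and the transcription factor MAF (0.831). These values describe 16 libraries that include the groups themselves. Over the 15 libraries without belinostat replicate 17 they were 0.860, 0.816 and 0.792 for the genes like ENG and 0.858, 0.783 and 0.788 for those like PDGFRA, and the belinostat mean of CDH11 was 7453 ± 245.

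**Figure D4:**
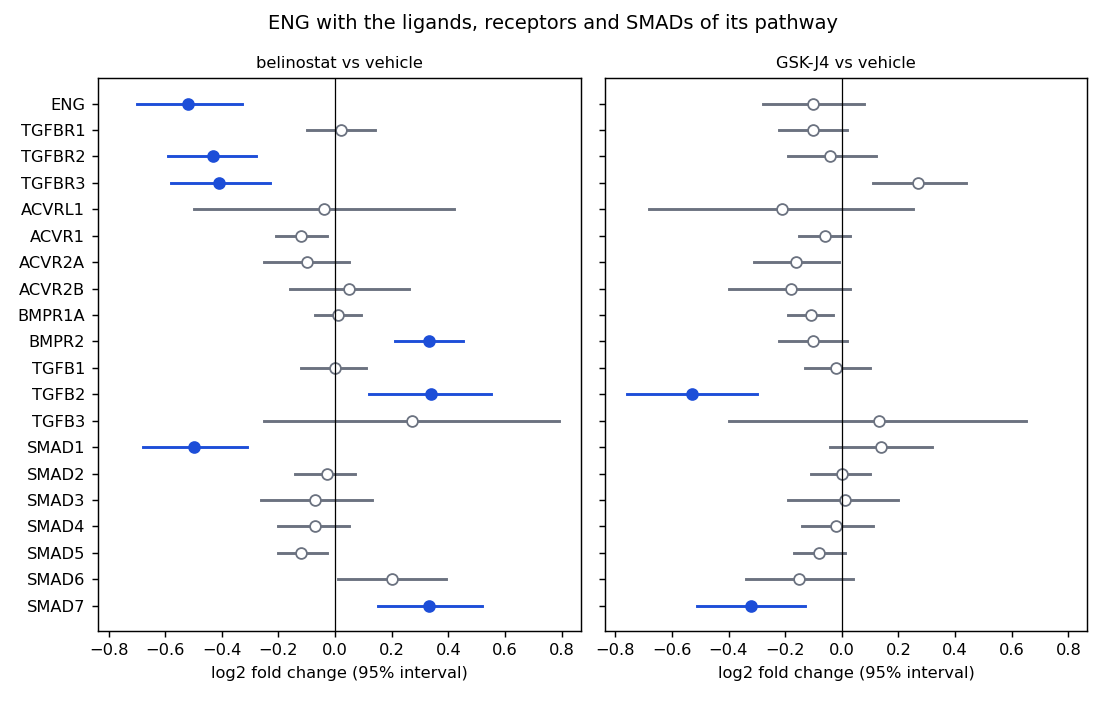
Log2 fold changes with 95% intervals of ENG and the tested ligands, receptors and SMADs of its pathway, for belinostat (left) and GSK-J4 (right) against vehicle. Filled points passed an adjusted p under 0.05; after belinostat ENG, TGFBR2, TGFBR3 and SMAD1 lie to the left and BMPR2, TGFB2 and SMAD7 to the right of 0.

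The third comparison asks what GSK-J4 left behind in pulsed cells. Of the 9 genes 8 were tested, CD34 being too low, and none was called in DESeq2 or in edgeR, while 1.92% of all genes were called. NT5E and PDGFRA had an unadjusted p under 0.05, 2 members in all, a bar that 10% of all genes passed.

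NT5E was at 500.4, 798.6, 501.9 and 516.7 normalized counts after GSK-J4 and at 569.2, 391, 311.1 and 498.8 in vehicle cells. The highest vehicle library was above 3 of the 4 GSK-J4 libraries, and the log2 fold change was 0.39 (SE 0.19, 95% interval 0.02 to 0.76, adjusted p = 0.458 in DESeq2). PDGFRA was at 19454, 20341, 20397 and 20619 after GSK-J4, all below the vehicle libraries, with a log2 fold change of -0.15 (SE 0.06, adjusted p = 0.246). It was the only member whose groups did not overlap (10% of all genes tested). It was called in DESeq2 when only these 2 groups were fitted (adjusted p = 0.0047) and with 2 surrogate variables (adjusted p = 0.0446).

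ENG was at 4624, 5096, 4333 and 4406 (log2 -0.10, 95% interval -0.28 to 0.08), and THY1 at 14428, 14877, 13655 and 12729 (log2 0.23, SE 0.118), both overlapping the vehicle libraries. VCAM1 lay at 7580 to 8733 (log2 -0.13), ICAM1 at 726.4 to 866.2 (log2 -0.02) and PDPN at 986.3 to 1603 (log2 -0.02). FAP ranged from 228.8 to 395.2 (log2 0.15, SE 0.237).

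In the endoglin list 2 of 19 tested genes were called after GSK-J4, both lower. They were TGFB2, at 149.2 ± 18.4 against 215.2 ± 12.6 (log2 -0.53, adjusted p = 0.00126 in DESeq2), and SMAD7 (log2 -0.32, adjusted p = 0.0432). In vehicle against unstimulated cells TGFB2 had been higher, at 215.2 ± 12.6 against 86.31 ± 9.95 (log2 1.32, adjusted p = 3.32e-22), and SMAD6 lower (log2 -0.33). NRP1 was the 1 gene called of 5 tested in the PDGF list, higher at 282.6 ± 55.8 (log2 0.75, adjusted p = 0.00411), and DPP4 the 1 called in both the adenosine and the FAP lists (log2 0.25). ITGB1, the beta chain of the VCAM1 receptor, was called by a narrow margin (log2 0.13, adjusted p = 0.0499) of 11 tested partners, and over the alternatives that count was 0 to 2. Of 21 other surface molecules tested, 3 were higher and ALCAM was lower (log2 -0.37). No NF-kB feedback gene of 9 tested was called in DESeq2, 1 had an unadjusted p under 0.05, and the count was 0 to 1 over the alternatives. Of the smooth muscle and pericyte markers 5 of 7 tested were called higher than in vehicle cells. Their summed level was 30645 to 32227 against 20435 to 23922 normalized counts. Of 8 fibroblast markers 2 were called higher, and no tested endothelial, haematopoietic or epithelial marker was called. The part of these differences in the values of the members was not tested.

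When treated cells were set against unstimulated ones, the calls were few. After belinostat 2 of 9 members were called (10.3% of all genes, 5.51% higher and 4.77% lower). ENG was lower (log2 -0.37, SE 0.09, adjusted p = 0.00136 in DESeq2) and ICAM1 higher, at 855.5 ± 181 against 662.7 ± 67.1 (log2 0.37, SE 0.125, adjusted p = 0.0369). The ICAM1 libraries overlapped through belinostat replicate 17. Its call was lost in edgeR, in the fit of these 2 groups and without independent filtering, and on leaving out unstimulated replicate 1 or 2, vehicle replicate 15 or belinostat replicate 18, 19 or 20 (adjusted p 0.0518 to 0.213). Without belinostat replicate 17 it was 0.50 on the log2 scale with an adjusted p of 1.73e-05. THY1, like ENG, did not overlap between these groups (12.3% of all genes tested) but was not called (log2 -0.28, adjusted p = 0.125). NT5E was close to the unstimulated level after belinostat, at 322.6 ± 54.8 against 299.1 ± 47.9 (log2 0.11, 95% interval -0.27 to 0.49). The remaining members were not called, with log2 fold changes of 0.15 for PDPN, -0.28 for FAP, 0.05 for VCAM1, -0.55 for CD34 and -0.12 for PDGFRA. In DESeq2 with 2 surrogate variables THY1 (adjusted p = 0.00207) and PDGFRA (adjusted p = 0.0247) were called, both lower. PDGFRA was also called without belinostat replicate 18 (adjusted p = 0.0459).

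After GSK-J4 1 of 9 members was called against unstimulated cells (5.55% of all genes, 3.18% higher). NT5E, the enzyme CD73, was at 579.4 ± 146 against 299.1 ± 47.9, 93.8% higher (log2 0.95, SE 0.191, 95% interval 0.58 to 1.33, adjusted p = 5.22e-05 in DESeq2). All 4 GSK-J4 libraries were above all 4 unstimulated ones, the lowest at 500.4 and the highest at 367.1. Without replicate 22, the highest library, and over all other alternatives the log2 fold change was 0.76 to 1.07 and the call held. ICAM1 did not overlap either (11.9% of all genes tested) but was not called (log2 0.28, adjusted p = 0.241). It was called in 3 alternatives, with only these groups fitted (adjusted p = 0.0465), with surrogate variables (0.00472) and without belinostat replicate 17 (0.0314). PDPN, at 1289 ± 252 against 870.8 ± 281, was not called (log2 0.57, 95% interval 0.12 to 1.01, adjusted p = 0.149) and was so without unstimulated replicate 1 (log2 0.75, adjusted p = 0.00327) or GSK-J4 replicate 24 (log2 0.68, adjusted p = 0.0226). The log2 fold changes of THY1, FAP, VCAM1, CD34, ENG and PDGFRA were 0.15, 0.17, -0.02, -0.61, 0.05 and -0.01, none of them called. Of the smooth muscle and pericyte markers 5 of 7 tested were also higher after GSK-J4, with summed levels of 30645 to 32227 normalized counts against 18695 to 29133, and their part in the NT5E difference was not tested. These contrasts share their unstimulated libraries with the first comparison, in which NT5E had a log2 fold change of 0.57.

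The last comparison sets belinostat directly against GSK-J4, at doses that differ. Here 3 of 9 genes were called, all lower after belinostat, while 12.2% of all genes were called and 6.01% were called lower. NT5E differed most, at 322.6 ± 54.8 against 579.4 ± 146 (log2 -0.85, SE 0.192, adjusted p = 0.000236 in DESeq2). ENG was at 3451 ± 546 against 4615 ± 344 (log2 -0.42, SE 0.09, adjusted p = 0.000136) and THY1 at 10363 ± 1776 against 13922 ± 942 (log2 -0.43, SE 0.118, adjusted p = 0.00465).

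None of these 3 genes overlapped between the compounds, which was so for 17% of all genes tested. Without belinostat replicate 17 the log2 fold changes were -0.75 for NT5E, -0.31 for ENG and -0.31 for THY1, and all were still called (adjusted p 0.00191, 5.1e-06 and 0.0122). PDPN (log2 -0.42, adjusted p = 0.268) and FAP (log2 -0.45, adjusted p = 0.247) were not called, with intervals that reach 0.03 and 0.02. PDPN was called in DESeq2 when only these 2 groups were fitted (adjusted p = 0.0126). That made 4 members, in a fit that called 11.1% of all genes. PDPN was also called without unstimulated replicate 2 (adjusted p = 0.047). VCAM1, ICAM1, CD34 and PDGFRA had log2 fold changes of 0.07, 0.09, 0.06 and -0.10. The widest of their intervals, that of CD34, ran from -0.82 to 0.95, while that of PDGFRA ran from -0.22 to 0.01.

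The surroundings of these genes differed between the compounds too. In the endoglin list 8 of 19 tested genes were called, 5 higher and 3 lower after belinostat, and in the list of other surface molecules 16 of 22 were called, 6 higher and 10 lower. Without belinostat replicate 17 these counts were 8 (5 higher and 3 lower) and 15 (4 higher and 11 lower), in a fit that called 14.6% of all genes. NRP1 (log2 -1.77) and DPP4 (log2 -0.50) were lower after belinostat. Markers of smooth muscle and pericytes were called in 7 of 7 tested genes, 6 of them lower after belinostat, with summed levels of 17414 to 19206 and 30645 to 32227 normalized counts. Their part in the differences of NT5E, ENG and THY1 was not tested.

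**Figure D5:**
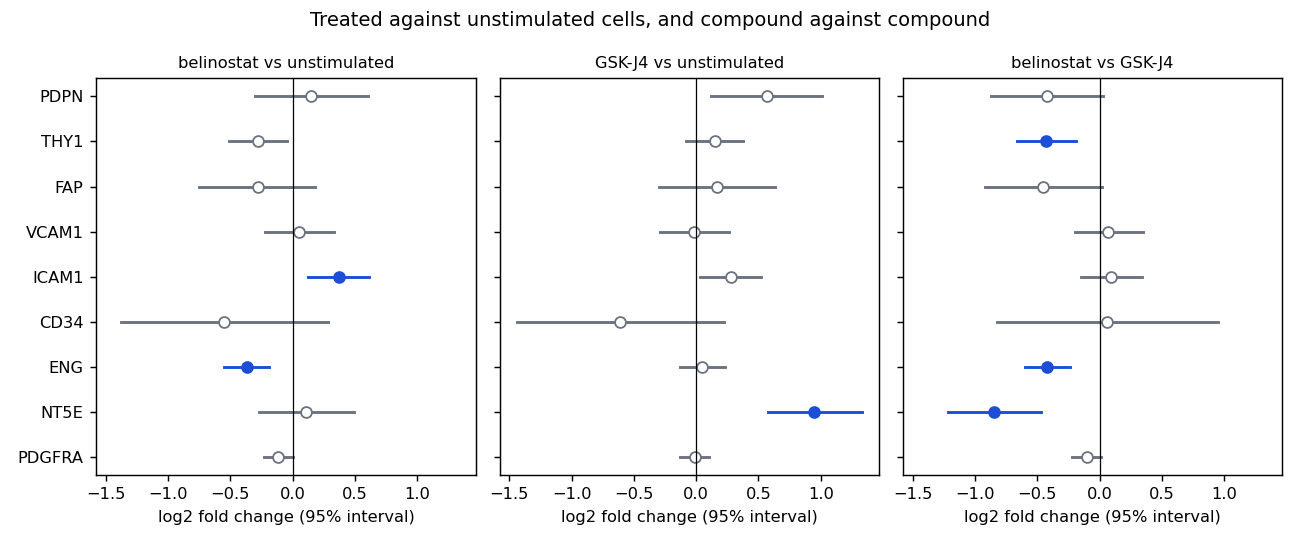
Log2 fold changes of the 9 genes with 95% intervals for each compound against unstimulated cells and for belinostat against GSK-J4. Filled points passed an adjusted p under 0.05 in DESeq2; NT5E lies at 0.95 for GSK-J4 against unstimulated cells and at -0.85 for belinostat against GSK-J4.

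In the GENCODE annotation of GRCh38, PDPN is at chr1:13583465-13617957, VCAM1 at chr1:100719742-100739045, CD34 at chr1:207880972-207911402 and FAP at chr2:162170684-162245151. PDGFRA is at chr4:54229280-54298245, NT5E at chr6:85449584-85495791, ENG at chr9:127815013-127854658, THY1 at chr11:119415476-119424985 and ICAM1 at chr19:10271093-10286615. THY1 and ICAM1 share exon bases with the antisense genes THY1-AS1 and ICAM4-AS1, which had at most 9 and 8.65 estimated counts in any library. FAP and ENG share 638 and 313 exon bases with unnamed antisense genes, and PDGFRA 1533 with a gene on its own strand, none of which is in the table by its identifier. How reads from such stretches were shared between the overlapping genes was not tested.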

How the data were processed

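Bulk RNA-seq of 16 libraries in 4 groups of 4 was used. Per the labels and the study's methods, the authors quantified reads with kallisto (0.48.0, build hg38, with FastQC 0.11.9 and MultiQC 1.14 for quality control), and they deposited estimated counts for each gene symbol without scaling for depth. The transcriptome release is not given in the sources used here. Columns of unstimulated cells read "none" where titles give DMSO and were matched by number. Of the values, 28% had decimals, and counts were rounded here.

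All 16 libraries were fitted together with DESeq2 1.42.0 in R 4.3.3 (Wald test, group as the factor, median-of-ratios size factors, default independent filtering). The threshold in the 6 contrasts was an adjusted p (Benjamini-Hochberg, over all genes tested) under 0.05, and the 95% intervals are 1.96 SE on either side. The tests were checked on simulated data. Within groups, library pairs differed by 2.97 to 31.6 times sampling noise, so none was counted as a duplicate. Alternatives were edgeR 4.0.16, other size factors, other filters, fits of 2 groups, 2 surrogate variables from sva 3.50.0, and leaving out each library.

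The members, gene lists and naming rule were chosen with earlier results of these data known. Each contrast was read for all 9 members, and from each other list at most 4 genes, by smallest adjusted p among those called against vehicle or between vehicle and unstimulated cells. Genes beyond this, such as the rest of a small count, were named after their values were seen. Likeness was Pearson's r of log2(normalized count + 1). Lengths and positions come from GENCODE and promoters from RefSeq, both looked up by symbol.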

Additional observations from a re-analysis of the deposited data

Results flagged for a closer look

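In each of 36 sets of 4 libraries (9 genes in 4 groups), the distance of the highest or lowest library from its nearest neighbour was set against the whole range, a check that chance trips in about 1 of 20 sets. It singled out 1 value. NT5E in GSK-J4 replicate 22 was at 798.6 normalized counts, while the other libraries of the group were at 500.4 to 516.7, so that the gap took up 0.945 of the range. Without this replicate NT5E was still called against unstimulated cells and against belinostat.

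The effect of belinostat differed from that of GSK-J4 by DESeq2's test of the difference in 3 genes, with log2 differences (belinostat minus GSK-J4) of -0.43 for THY1 (adjusted p = 0.00465), -0.42 for ENG (adjusted p = 0.000136) and -0.85 for NT5E (adjusted p = 0.000236). In all 3, the 4 belinostat libraries were below the 4 GSK-J4 libraries, and 17% of all genes tested did not overlap. Over all genes 12.2% were called and 6.01% were called lower. These are the values of the direct contrast of the compounds given above, not a further test.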

How the results depend on the processing

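In 23 alternatives per contrast (16 that leave out a library and 7 others), the calls of ENG and PDGFRA for belinostat against vehicle, of NT5E for GSK-J4 against unstimulated cells, of ENG for belinostat against unstimulated cells, and of THY1, ENG and NT5E between the compounds all held. No paired analysis was possible because the groups share no replicate numbers. The number of members called became 1 between vehicle and unstimulated cells with 2 surrogate variables (3.2% of all genes called, against 1.74%). For GSK-J4 against vehicle it became 1 with 2 surrogate variables (3.02%, against 1.92%) and with only the 2 groups fitted (4.26%). For belinostat against unstimulated cells (10.3%) it became 1 in edgeR (3.91%), without independent filtering (4.31%) and with only the 2 groups (5.95%), and 4 with surrogate variables (11.4%). For GSK-J4 against unstimulated cells (5.55%) it became 2 with only the 2 groups (6.35%) and with surrogate variables (7.28%). With only the 2 groups it became 3 for belinostat against vehicle (5.48%, against 6.26%) and 4 between the compounds (11.1%, against 12.2%). On leaving out each library the counts were 0 to 1, 2 to 3 and 0 to 0 for vehicle against unstimulated, belinostat against vehicle and GSK-J4 against vehicle, and 1 to 2, 1 to 2 and 3 to 4 for belinostat and GSK-J4 against unstimulated and for belinostat against GSK-J4. In the same order, the calls over all genes in these fits moved as well. They ran from 180 to 453, 664 to 1127 and 132 to 432, and from 989 to 1836, 651 to 1308 and 1314 to 2136. The cause was not tested.

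Signs turned in uncalled genes only. With surrogate variables, the log2 fold changes were -0.05 for FAP between vehicle and unstimulated cells, -0.02 for ICAM1 and -0.08 for CD34 after belinostat against vehicle, and 0.04 for ICAM1 after GSK-J4 against vehicle. Against unstimulated cells VCAM1 was at -0.08 after belinostat and 0.02 after GSK-J4, and between the compounds VCAM1 was at -0.10, ICAM1 at -0.06 and CD34 at -0.22. On leaving out libraries, FAP ran from -0.13 to 0.21 for vehicle against unstimulated cells. For belinostat against vehicle VCAM1 ran from -0.15 to 0.10, ICAM1 from -0.05 to 0.20 and CD34 from -0.11 to 0.25. For GSK-J4 against vehicle PDPN ran from -0.14 to 0.11, FAP from -0.04 to 0.30, ICAM1 from -0.06 to 0.03 and CD34 from -0.18 to 0.23. Against unstimulated cells PDPN ran from -0.04 to 0.33 and VCAM1 from -0.04 to 0.21 after belinostat, and VCAM1 from -0.11 to 0.04, ENG from 0.00 to 0.08 and PDGFRA from -0.06 to 0.01 after GSK-J4. Between the compounds VCAM1 ran from -0.02 to 0.23, ICAM1 from -0.03 to 0.22 and CD34 from -0.16 to 0.29. CD34 had 5.08 to 15.98 normalized counts per library, a depth that limits what could be detected.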
